A study of Mus musculus with 6 samples.

Results

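The Hoxc cluster genes were followed in mouse presomitic mesoderm, the paired tissue of the embryo's posterior from which somites bud off. The 9 members, Hoxc4, Hoxc5, Hoxc6, Hoxc8, Hoxc9, Hoxc10, Hoxc11, Hoxc12 and Hoxc13, were taken by name from the platform's gene symbols, each through a probe set with no other symbol, out of 15153 genes measured in that way. All 9 were found, each with 1 probe set. Tissue was microdissected at embryonic day 9.5 from embryos with 17 to 19 somites, and each array read a pool of 3 presomitic mesoderms. The 3 control pools came from embryos that the labels call wild type and that carried Taf10Flox/+ or Taf10flox/flox, so a floxed Taf10 allele was present in every pool. The 3 mutant pools came from TCre/+;Taf10flox/flox embryos, in which Cre recombinase is driven by T, a gene of the primitive streak and its mesodermal descendants. The labels do not give Cre in the control embryos, so Cre and the loss of Taf10 came together in this comparison. Pools of embryos are labelled as biological replicates, and the limma p-values below set the difference between genotypes against the spread between pools.

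Hox genes encode homeodomain transcription factors that give tissues along the head to tail axis their regional identity. Within a cluster they are switched on in order, from the genes at one end, here Hoxc4, which are active early and reach far forward, to those at the other end, here Hoxc13, which come on late and are active near the tail. In presomitic mesoderm this sequence sets the type of vertebra that each somite later forms. TAF10, the protein whose gene is floxed, is a subunit of TFIID, the complex that recognises core promoters, and also of SAGA, a histone-modifying coactivator.

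The cluster lies on mouse chromosome 15 and also holds 2 microRNA genes with a probe set here, Mir196a-2 and Mir615. Mature microRNAs pair with messenger RNAs through their seed, bases 2 to 8, and miR-196 is known to target Hox messages, Hoxc8 among them. The sequences below are from RefSeq (GRCm38.p6, plus strand), with the seed in capitals, and are shown because these genes are transcribed from within the cluster.
mmu-miR-196a-5p: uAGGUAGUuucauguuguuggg
mmu-miR-196a-2-3p: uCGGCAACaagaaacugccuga
mmu-miR-615-5p: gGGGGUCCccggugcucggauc
mmu-miR-615-3p: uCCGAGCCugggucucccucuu
The seed of miR-196a-5p was carried by 2 of 1674 distinct mature mouse microRNA sequences in that table, and each of the other 3 seeds by 1. The mature miR-196a-5p occupied chr15:102973365-102973386, and miR-615-3p chr15:103014969-103014990.

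Among the Hoxc members, RefSeq promoters were matched for 1, Hoxc4, the gene whose level passed the test below. The 300 bases at chr15:103034145-103034444 (GRCm38.p6, plus strand) run from 250 bases before the start site to 50 bases after it, and the transcribed part is in capitals.
Hoxc4: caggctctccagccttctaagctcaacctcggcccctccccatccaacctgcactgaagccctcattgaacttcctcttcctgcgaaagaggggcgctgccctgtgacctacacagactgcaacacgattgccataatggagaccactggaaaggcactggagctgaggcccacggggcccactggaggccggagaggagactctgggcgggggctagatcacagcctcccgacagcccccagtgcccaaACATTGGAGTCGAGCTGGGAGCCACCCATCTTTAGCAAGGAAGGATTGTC
This stretch was 60.3% G and C, against a median of 52.7% over 32851 mouse promoters of the same length, and held 9 CG dinucleotides against a median of 7. Both strands were searched for 4 motifs. TATAAA, the core of the TATA box that TFIID binds, was not found in this window, and 13.6% of all promoters held it. TTTATNG, a form of the site bound by CDX factors, was not found either, and 10.9% held it. AGGTCA, the half-site of retinoic acid receptors, occurred at 1 place, on the minus strand with its first base at position -146 from the start site, and 16.3% held it. CCAAT occurred on the minus strand from position 3, and 37.4% held it. These matches describe letters in the window, and no binding was measured.

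The array medians ranged from an intensity of 307.9 to 317.5, and mutant 3 lay apart from the other pools. Its probe sets deviated from the mutant mean by a root mean square of 0.184 on the log2 scale, where the other 5 arrays deviated from theirs by 0.0762 to 0.112. Xist, the RNA of the inactive X chromosome, read 6.32 (log2) in control 3 but 11.35 to 12.57 elsewhere, so control 3 differed from the rest in its make-up by sex. Of 2 probe sets named Taf10, probe set 10365288 read log2 levels of 10.77, 10.61 and 10.69 in the controls and 10.40, 10.37 and 10.18 in the mutants (limma adjusted p = 0.04). Probe set 10566525 read 8.95, 8.89 and 8.79 in the controls and 8.85, 8.93 and 9.19 in the mutants (adjusted p = 0.53). Neither probe set is placed on the transcript by the sources used here, so these values do not check the deletion. Of 12 presomitic mesoderm markers 11 were measured, Tbx6, Msgn1, Hes7, Dll1, Dll3, Wnt3a, Fgf8, Cyp26a1, Mesp2, Ripply2 and Lfng. Their changes were positive for 6 and negative for 5, with a median of 0.05, and their summed intensity, in which the brightest probe sets weigh most, was 20552 to 21795 in controls and 25396 to 27823 in mutants. By the array's own numbering the member probe sets ran without a gap from Hoxc13 to Hoxc4. The probe set of Mir196a-2 stood between those of Hoxc10 and Hoxc9, and that of Mir615 between those of Hoxc5 and Hoxc4. The order of the Hoxc genes in this run is their order along the cluster. In RefSeq, Hoxc4 overlaps Gm30528, Hoxc9 overlaps Gm36878 and Hoxc5 overlaps Mir615, and which of such a pair a probe set reads was not tested.

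Hoxc4 fell in mutant presomitic mesoderm, and no other Hoxc gene passed the test in either direction. It dropped to 67.6% of control. Hoxc6 was measured at 82.7% of control with groups that did not overlap, but did not pass. Of the other 7 members, all had positive log2 changes, from 0.04 for Hoxc8 to 0.31 for Hoxc12, and none passed. A gene was called changed at a limma p under 0.05 after Benjamini-Hochberg adjustment over all 16311 single-symbol probe sets, and each change is the mutant mean minus the control mean of log2 intensity. So 1 of 9 members fell, where 2.96% of all genes fell, and 0 of 9 rose, where 2.96% of all genes rose. In either direction 5.92% of all genes were called, against 1 of 9 members. At an unadjusted limma p under 0.05 there were 2 members higher and 2 lower, and over all genes 11.7% were higher and 10.9% lower at that threshold. The median change over the members was 0.19, beside 0.03 over all genes tested. In bulk tissue, fewer cells that express a gene and less RNA per cell cannot be told apart.

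**Figure D1:**
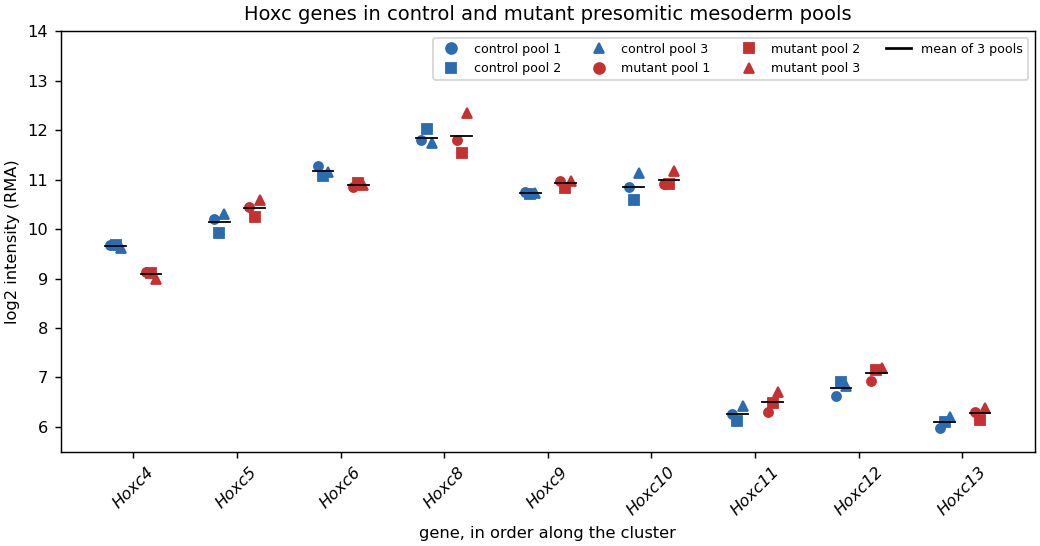
Log2 intensity (y axis) of the 9 Hoxc genes, in cluster order on the x axis, in every control pool (blue, n = 3) and mutant pool (red, n = 3), with black bars for the mean of 3 pools. The mutant points of Hoxc4 and Hoxc6 lie below all their control points, and levels of different genes come from different probes and cannot be set against each other.

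Hoxc4, the first gene of the cluster to be switched on, encodes a homeodomain factor of the fourth paralogue group, known for its part in cervical and upper thoracic patterning. The controls read log2 levels of 9.67, 9.67 and 9.61, and the mutants 9.14, 9.12 and 9.0. The controls lay close together (SD 0.03), mutant 3 was the lowest pool, and the groups did not overlap. In intensity the controls stood at 815, 814 and 782 and the mutants at 564, 556 and 511. The log2 change was -0.56 (SE 0.07, 95% interval -0.72 to -0.41, limma adjusted p = 0.00683, n = 3 pools each). By exact permutation (two-sided) its p was 0.1, the lowest that 3 pools against 3 can reach. Among the 448 genes called lower the median change was -0.46, and 122 of them fell by more than Hoxc4. Without mutant 3 the change was -0.52 (adjusted p = 0.00189). Limma no longer called it without control 1 (-0.55, adjusted p = 0.0541) and without control 2 (-0.56, adjusted p = 0.0569), where 0.271% and 0.442% of all genes were called.

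Hoxc6, a gene active in forelimb-level and thoracic mesoderm, had the other negative change. Log2 levels were 11.28, 11.07 and 11.15 in the controls and 10.86, 10.93 and 10.89 in the mutants. Every mutant pool lay below every control, with the mutants close together (SD 0.03). The change was -0.27 (SE 0.07, 95% interval -0.44 to -0.10), and limma did not call it (adjusted p = 0.0727). It passed without mutant 3, at the same change of -0.27 (adjusted p = 0.0471). Hoxc4 and Hoxc6 were thus the 2 members with mutant below control in every pool, and 15.1% of all genes had groups apart in that direction.

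Hoxc5 lies between Hoxc6 and Hoxc4 in the cluster, and its values did not follow theirs. The controls read 10.21, 9.92 and 10.31 and the mutants 10.44, 10.24 and 10.59. Control 2 was the lowest pool and mutant 3 the highest, and the groups overlapped through mutant 2 and control 3. The change of 0.27 (SE 0.12, 95% interval -0.01 to 0.56) did not pass (limma adjusted p = 0.24). Within an array, the log2 level of Hoxc4 minus that of Hoxc5, set to a mean of 0 in the controls, was -0.04, 0.25 and -0.20 in the controls and -0.80, -0.62 and -1.09 in the mutants. The mutant mean of that difference was -0.84 and the exact permutation p was 0.1, the smallest possible. The same difference for Hoxc6 minus Hoxc5 was 0.05, 0.13 and -0.18 in the controls and -0.60, -0.33 and -0.72 in the mutants, with a mutant mean of -0.55 and the same exact p of 0.1. For Hoxc4 minus Hoxc6 the controls stood at -0.10, 0.12 and -0.02 and the mutants at -0.20, -0.29 and -0.37. The genes of these pairs were taken by their changes in these same arrays. The differences, Hoxc6 minus Hoxc5 included, thus restate those changes and are no further evidence of them. Neither Hoxc6 nor Hoxc5 passed by itself. In all 6 pairs of genes were compared in this way, each with an adjusted exact p of 0.1, and 3 arrays a group cannot bring such a test lower.

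Hoxc8, which patterns thoracic vertebrae, did not pass and was the most variable member among the mutants. The controls read 11.80, 12.02 and 11.75, and the mutants 11.80, 11.53 and 12.34. Mutant 3 was the highest of the 6 pools and mutant 2 the lowest. The change of 0.04 (SE 0.19, 95% interval -0.39 to 0.47, limma adjusted p = 0.918) turned to -0.18 without mutant 3 (adjusted p = 0.316) and to -0.02 without control 3. The interval spans changes of either sign, so the direction of Hoxc8 was not settled at this number of arrays.

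Hoxc9, a thoracic Hox gene, had an SD of 0.03 in the controls and 0.08 in the mutants, the same as Hoxc4. Its controls read 10.75, 10.70 and 10.73 and its mutants 10.98, 10.84 and 10.97. Each mutant pool lay above each control. The change was 0.20 (SE 0.07, 95% interval 0.04 to 0.36), and it did not pass (limma adjusted p = 0.125). Leaving out 1 pool at a time gave changes from 0.18 to 0.25, none of which passed.

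Hoxc10, known for lumbar vertebrae and hindlimb-level tissue, had controls that differed among themselves more than the groups did. They read 10.85, 10.59 and 11.13, and the mutants 10.91, 10.92 and 11.18. The groups overlapped, since control 3 lay above mutants 1 and 2. The change was 0.15 (SE 0.14, 95% interval -0.17 to 0.47, limma adjusted p = 0.555), and 0.01 without control 2.

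Hoxc11, Hoxc12 and Hoxc13, the last genes of the cluster to be switched on, act in lumbosacral and tail tissue, and Hoxc13 also in hair and nails. They had low signals on these arrays. Over all 6 arrays, 14.1% of all probe sets had a lower mean than that of Hoxc11, 24.7% a lower mean than that of Hoxc12 and 10.4% a lower mean than that of Hoxc13. The deposited table has no detection calls, so whether these signals stand above background is not known here, and a fold change near background is compressed. Hoxc11 read 6.27, 6.11 and 6.43 in the controls and 6.30, 6.49 and 6.71 in the mutants, and these groups overlapped. Its change was 0.23 (SE 0.12, 95% interval -0.05 to 0.51, limma adjusted p = 0.304). Hoxc12 read 6.63, 6.90 and 6.82 in the controls and 6.93, 7.15 and 7.19 in the mutants. Each mutant pool of Hoxc12 lay above each control, with mutant 1 just above control 2. The change of 0.31 (SE 0.10, 95% interval 0.08 to 0.54) was the largest positive change in the cluster and did not pass (limma adjusted p = 0.116). Hoxc13 read 5.98, 6.09 and 6.20 in the controls and 6.30, 6.14 and 6.39 in the mutants, with mutant 2 inside the range of the controls. Its change was 0.19 (SE 0.09, 95% interval -0.02 to 0.40, limma adjusted p = 0.259). Hoxc9 and Hoxc12 were the 2 members with mutant above control in every pool, and 17.2% of all genes had groups apart in that direction.

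**Figure D2:**
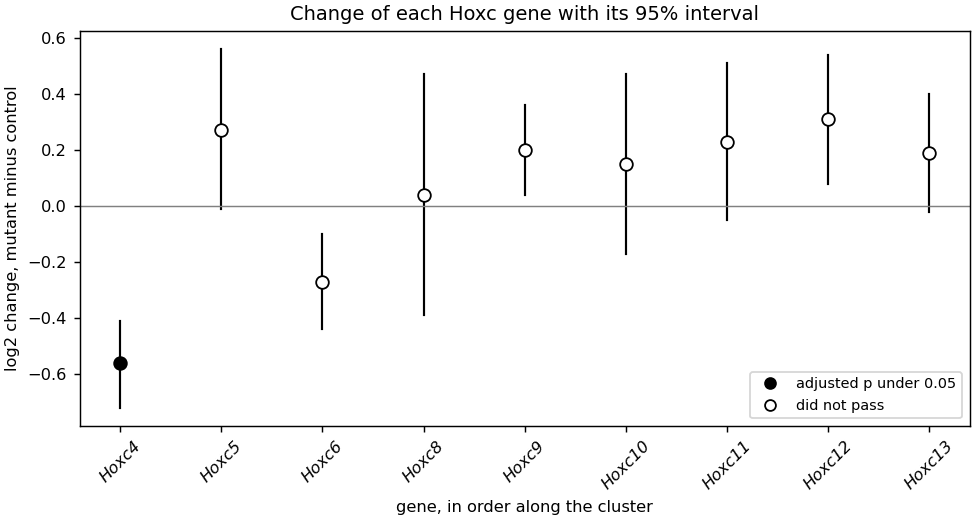
Log2 change, mutant minus control (y axis), of each Hoxc gene in cluster order (x axis), with its 95% interval from limma as a line; a filled point has an adjusted p under 0.05. Hoxc4 at -0.56 is the filled point, Hoxc6 at -0.27 lies below 0 with its interval, and the other 7 points lie above 0.

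Single pools set part of the spread of the members. Mutant 3, the array apart from the rest, was the highest of all 6 pools for 6 of 9 members, namely Hoxc5, Hoxc8, Hoxc10, Hoxc11, Hoxc12 and Hoxc13, and the lowest for Hoxc4. Relative to the control mean it stood 0.44 higher for Hoxc5, 0.48 for Hoxc8, 0.32 for Hoxc10 and 0.44 for Hoxc11. Among controls, control 2 was the lowest for 5 members. How often each pool was the extreme over all genes was not counted, so these counts are not read as a trait of the Hoxc genes. Without mutant 3, the changes of Hoxc5, Hoxc10 and Hoxc11 were 0.19, 0.06 and 0.13. With 1 array dropped at a time, 0 members fell in the fits lacking control 1 or control 2, 2 fell in the fit lacking mutant 3 and 1 fell in each other fit, and 0 members rose in any of these 6 fits. Of all genes, 2.13% were called once control 3 was dropped, 3.1% once mutant 1, 2.34% once mutant 2 and 12.8% once mutant 3 was.

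**Figure D3:**
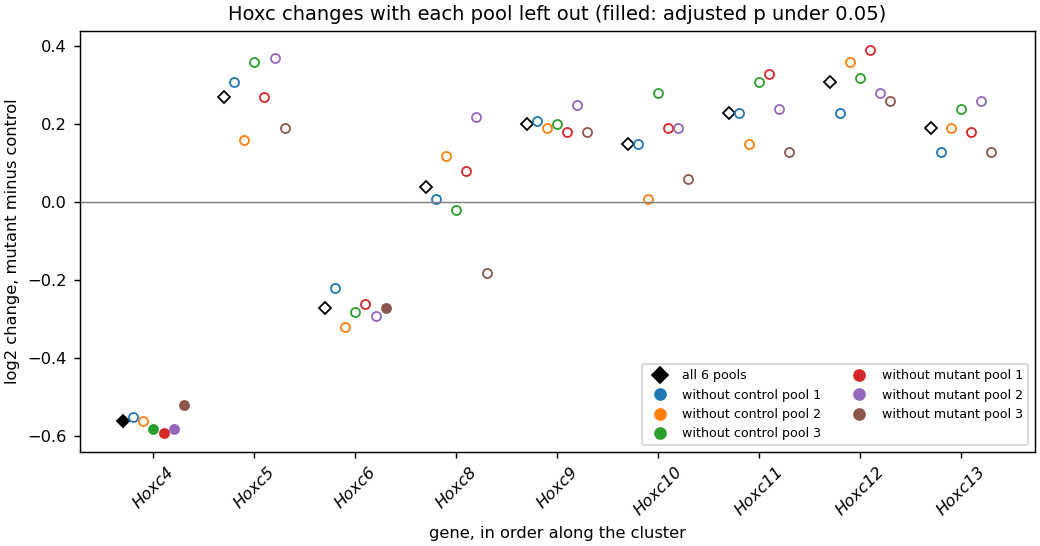
Log2 change, mutant minus control (y axis), of each Hoxc gene (x axis) with all 6 pools (diamonds) and with each pool left out in turn (coloured circles); filled points have an adjusted p under 0.05. Hoxc4 stays between -0.59 and -0.52 and Hoxc6 between -0.32 and -0.22, while Hoxc8 runs from -0.18 to 0.22.

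The microRNA genes of the cluster did not pass. Mir196a-2, between Hoxc10 and Hoxc9, read 7.41, 7.44 and 7.36 in the controls and 7.34, 7.27 and 7.73 in the mutants, with mutant 3 highest and mutant 2 lowest. The change was 0.04 (SE 0.12, 95% interval -0.23 to 0.31, limma adjusted p = 0.85). Mir615, which overlaps Hoxc5, read 8.30, 8.45 and 8.66 in the controls and 8.47, 8.41 and 8.60 in the mutants. Its change was 0.02 (SE 0.10, 95% interval -0.21 to 0.26, limma adjusted p = 0.916). Which product of these genes a probe set reads is not given in the sources, so the mature sequences printed above were not measured as such. Hotair was not analysed here. Of the protein-coding genes listed as lying beside the cluster, 10 were measured, among them Calcoco1 on the Hoxc13 side and Smug1, the uracil DNA glycosylase, and Cbx5, a heterochromatin protein, on the Hoxc4 side. By limma 0 of the 10 passed, with a median of 0.04. At an unadjusted p under 0.05, 1 was higher (Gpr84, log2 0.17, adjusted p = 0.216) and 0 were lower, beside 11.7% and 10.9% of all genes. Smug1, the nearest measured gene beyond Hoxc4, changed by 0.04 and Cbx5 by -0.09, neither past the threshold. Atp5g2, for a subunit of ATP synthase, was read at -0.25 by the probe set that stood for it (limma adjusted p = 0.254). Its other probe sets gave -0.38 (adjusted p = 0.0169) and -0.02 (adjusted p = 0.904), so they did not read alike. By the array's own numbering, the probe set at -0.02 is the one nearest to that of Calcoco1.

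In the other 3 clusters the Hox genes that passed were all higher in the mutant. Of 10 measured Hoxa genes 2 rose and 0 fell, of 9 Hoxb genes 2 rose and 0 fell, and of 9 Hoxd genes 3 rose and 0 fell, so that 7 of 28 rose, beside 2.96% of all genes. The 7 were Hoxa4, Hoxa7, Hoxb1, Hoxb7, Hoxd1, Hoxd3 and Hoxd9, of which Hoxb7 (log2 0.87, SE 0.09, limma adjusted p = 0.00617) passed in all 6 fits with 1 array dropped. The medians were 0.25, 0.33 and 0.21, and 25 of the 28 changes were positive, against 7 of 9 in the Hoxc cluster and 59.3% of all genes. All these values come from the same 6 arrays. The counts depended on single arrays, with 1 of the 28 rising once control 1 was dropped, 2 once control 2, 4 once control 3 or mutant 1 and 11 once mutant 3 was. With array weights 16 rose and 1 fell. The paralogues of Hoxc4, which encode closely related homeodomains, read as follows. Hoxa4 stood at 10.29, 10.42 and 10.50 in the controls and 10.95, 10.70 and 11.02 in the mutants, and it rose by 0.48 (SE 0.10, limma adjusted p = 0.0351), a call lost without control 1 (0.155), control 2 (0.144), control 3 (0.0731) or mutant 1 (0.0872). Hoxb4 read 10.03, 10.03 and 10.01 in the controls and 10.18, 10.22 and 10.14 in the mutants, a change of 0.15 (SE 0.06) that did not pass (adjusted p = 0.177). Hoxd4 read 11.95, 11.88 and 11.92 in the controls and 12.06, 12.06 and 12 in the mutants, a change of 0.12 (SE 0.06) that did not pass (adjusted p = 0.279). The mutant pools of all 3 paralogues thus lay above their controls, and those of Hoxc4 below. Over all genes 17.2% had groups apart upward and 15.1% downward, and Hoxb4 and Hoxd4 did not pass. Within each array, Hoxc4 minus Hoxa4 had a mutant mean of -1.05 (SD 0.22) from a control mean set to 0 (SD 0.14). Hoxc4 minus Hoxb4 had a mutant mean of -0.72 (SD 0.05, controls SD 0.02) and Hoxc4 minus Hoxd4 one of -0.69 (SD 0.04, controls SD 0.05). These differences hold the fall of Hoxc4 itself and are given as a description.

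**Figure D4:**
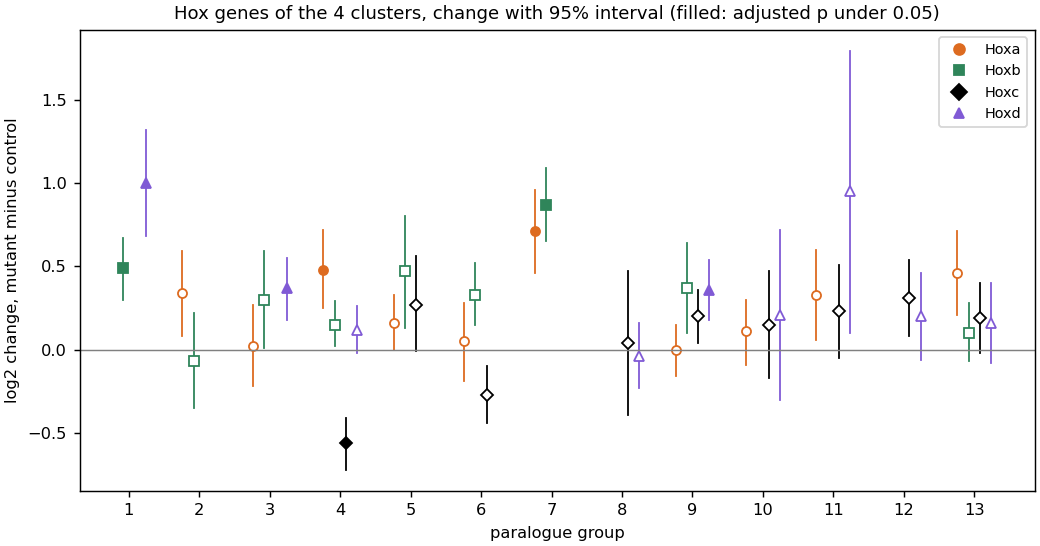
Log2 change, mutant minus control (y axis), of the 37 measured Hox genes by paralogue group (x axis), with 95% intervals from limma; colour and shape give the cluster, and filled points have an adjusted p under 0.05. Hoxc4 at -0.56 is the filled point below 0, and the other 7 filled points, from Hoxd9 at 0.36 to Hoxd1 at 1.0, lie above it.

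Genes known to set Hox expression in the posterior axis changed both ways, with 1 higher and 3 lower of 21 measured, where 2.96% of all genes changed each way, and a median of 0.00. The CDX factors bind Hox clusters directly and drive trunk Hox genes. Cdx4 fell from 11.09, 11.24 and 11.29 in the controls to 10.64, 10.50 and 10.67 in the mutants (log2 -0.60, SE 0.08, limma adjusted p = 0.00912), a call lost without control 2 (0.0675). Cdx1 rose from 7.90, 7.98 and 8.08 to 8.47, 8.28 and 8.48 (log2 0.43, SE 0.08, adjusted p = 0.0273), a call lost without control 1 (0.13), control 2 (0.131), control 3 (0.059) or mutant 1 (0.0763). Cdx2 overlapped between groups, with a change of 0.11 (adjusted p = 0.583). Both called Cdx genes had groups that did not overlap, in opposite directions, as 17.2% of all genes did upward and 15.1% downward.

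Cyp26a1, which clears retinoic acid, an inducer of anterior Hox genes, fell from 7.06, 6.86 and 7.01 in the controls to 6.24, 6.13 and 6.33 in the mutants. The change was -0.74 (SE 0.08, limma adjusted p = 0.00643) and missed the threshold without control 1 (0.0501). Its signal was low, with 18.3% of all probe sets lower in mean, and whether it stands above background is not known. Lin28a, an RNA-binding protein that helps time the passage from trunk to tail, fell from 10.77, 10.83 and 10.87 to 10.56, 10.39 and 10.24 (log2 -0.42, SE 0.09, adjusted p = 0.0374). That call was lost without control 1 (0.129), control 2 (0.159), control 3 (0.122) or mutant 2 (0.0951). Its relative Lin28b read 9.60, 9.74 and 9.5 in the controls and 9.14, 9.16 and 8.28 in the mutants, with mutant 3 far below the other pools, and did not pass (log2 -0.75, SE 0.22, adjusted p = 0.0886). Gdf11, the secreted signal for the switch to posterior Hox genes, changed by -0.03 and did not pass. The retinoic acid receptor genes Rara, Rarb and Rarg had changes of 0.17, 0.12 and 0.01, none of which passed.

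The PBX and MEIS proteins bind DNA together with Hox proteins. Of 8 cofactor genes measured, limma called 0. At an unadjusted p under 0.05, 1 was higher and 2 were lower, beside 11.7% and 10.9% of all genes. Pbx3 (log2 -0.32, adjusted p = 0.055), Meis1 (-0.43, adjusted p = 0.0554) and Meis2 (0.26, adjusted p = 0.166) had the smallest p. Polycomb proteins keep Hox clusters silent and Trithorax proteins keep them active. Of 16 such genes limma called 0, and 0 had an unadjusted p under 0.05, with a median of 0.05. Kmt2a, the Trithorax methyltransferase of Hox genes, changed by 0.13 (adjusted p = 0.235) and Ezh2, the Polycomb methyltransferase, by 0.07 (adjusted p = 0.523).

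Other cells in the dissected tissue also express Hoxc genes, so their markers are given beside the results. Of 6 neural tube markers 0 passed, and their summed intensity was 1140 to 1330 in controls and 1212 to 1323 in mutants. Of 6 markers of lateral plate and hindlimb field 0 passed, with sums of 1774 to 2139 and 1834 to 2194. Of 5 somite markers 0 passed, and their median change was -0.31. At an unadjusted limma p under 0.05, 2 of them were lower, beside 10.9% of all genes. Somite sums were 1932 to 2522 in controls and 1439 to 2006 in mutants. Sums for neural tube, lateral plate and somite each overlapped between genotypes. Of 11 presomitic mesoderm markers Tbx6 and Hes7 rose and Cyp26a1 fell, with a median of 0.05 over the list. At an unadjusted limma p under 0.05, 5 of these 11 were higher and 1 was lower, beside 11.7% and 10.9% of all genes. Their sums, 20552 to 21795 in controls and 25396 to 27823 in mutants, did not overlap. Of 4 intermediate mesoderm markers Lhx1 rose. Over all genes 2.96% rose and 2.96% fell. Of 6 gut endoderm, 3 surface ectoderm and 2 notochord markers measured, 0 passed. The sums for 3 endothelial markers (382 to 1201 and 297 to 874) and 3 erythroid ones (8965 to 21906 and 3641 to 16218) overlapped, and 0 of these 6 passed. The low erythroid sum of 3641 was that of mutant 3, where mutants 1 and 2 stood at 16218 and 14327. The median erythroid change was -0.58 with all pools and 0.15 without mutant 3. The part of any of these cell types in the fall of Hoxc4 was not tested.

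The genes whose pattern over the 6 arrays was nearest to that of Hoxc4 were Ezr, Ets2 and Rbm3. Likeness was the root mean square distance between profiles centred on their own mean, and it was 0.037, 0.038 and 0.039 log2 units. Ezr, an actin linker of the cell membrane, read 9.57, 9.54 and 9.54 in the controls and 9.13, 9.07 and 8.91 in the mutants. Ets2, a transcription factor downstream of FGF and ERK signalling, fell by 0.62 on the log2 scale (SE 0.07) and Rbm3, a cold-inducible RNA-binding protein, by 0.62 (SE 0.06). With 6 arrays in 2 groups, any gene that fell by a like amount with little spread is near by this measure.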

How the data were processed

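Single-strand cDNA made from 150 ng of total RNA was labelled with biotin and read on 6 arrays, per the labels' protocols. The deposited intensity values came from RMA, per the submitters' processing notes, with version, chip description and any filter not given in the sources used here. They are on a linear scale from 20.5 to 21070 and were log2-transformed without renormalizing. Of 18064 probe sets, 16311 had 1 symbol, 734 several and 1019 none in the platform annotation. RefSeq (GRCm38.p6) held the gene ID of 16284 of those with 1 symbol, under 0 other symbols, and other probe sets were not used for named genes. With R 4.3.3, limma 3.58.1 (lmFit, then eBayes, no covariate) was fitted to all 16311, and the script was tested on simulated data. A gene was represented by its probe set of highest mean. No depth applies to arrays, and their number limits the precision.

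The members, gene lists, rule for naming genes and alternatives were chosen with earlier results of these data known. By the rule, all members, list genes that passed, up to 3 list genes with the smallest p, paralogues of a called Hoxc gene and the 3 nearest genes to Hoxc4 were named, with other Hox clusters by counts; the presomitic mesoderm markers, Lhx1, Hoxa7, Hoxb1, Hoxb7, Hoxd1, Hoxd3, Hoxd9, Cdx2, Lin28b, Gdf11, Rara, Rarb, Rarg, Ezh2, Smug1 and Cbx5 were added after their values were seen. Alternatives were quantile normalization, median centring, a filter at the 40th percentile of level, the replicate number as a block, eBayes with trend and robust, array weights, all probe sets, the mean of a gene's probe sets and each array left out. Leaving out control 3 and mutant 3 together was added later.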

Additional observations from a re-analysis of the deposited data

How the results depend on the processing

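The fall of Hoxc4 kept its sign under all 15 alternatives, from -0.59 to -0.52 (adjusted p from 5.26e-05 to 0.0569), and its call under 13. Leaving out 1 array gave -0.59 to -0.52, and the call was lost without control 1 and control 2, as given above. The number of Hoxc genes called, 1 in the report, was 0 to 2 with 1 array left out, 2 with the replicate block and 3 with array weights. Array weights called 23.8% of all genes. Hoxc12 passed with the replicate block (0.31, adjusted p = 0.0444) and with array weights (0.28, 0.0224), and Hoxc6 with array weights (-0.22, 0.0157) and without mutant 3. Hoxc8 turned negative with array weights (-0.29), without mutant 3 (-0.18), without control 3 (-0.02) and without control 3 and mutant 3 together (-0.24), and ran up to 0.22 without mutant 2, and none of these passed. The members with a positive change, 7 in the report, were 6 to 7 with 1 array left out and 4 with the filter on level, which removed Hoxc11, Hoxc12 and Hoxc13. The genes called over the 8 other lists, 11 in the report, were 2 to 18 with 1 array left out, 19 without control 3 and mutant 3 together and 31 with array weights. The cause of these shifts was not tested, apart from the removal of genes by the filter. The other 5 members kept their sign and did not pass under any alternative run on them.

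Whether the replicate numbers pair the arrays was not settled. The deviations of same-numbered arrays from their group means correlated at 0.13, 0.08 and 0.32 across probe sets. Control 1 and control 2 each correlated better with a mutant of another number (0.20 and 0.17). Control 3 correlated best with mutant 3, against -0.28 with mutant 1 and -0.27 with mutant 2. With the block 1084 genes were called, against 897 without it. The signal of Hoxc11, Hoxc12 and Hoxc13 over background is unknown, and 3 arrays a group limit what a missed threshold can show.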
